A study of Mus musculus with 2 samples.

Results

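Immediate-early genes and heat shock genes were followed as a group of 33 genes, chosen by symbol from the rows of both count matrices: 26 immediate-early or growth response genes and 7 heat shock genes, out of 27998 genes listed for the E12.0 library and 31053 for that of E9.5. The study profiled the mandibular process of mouse embryos by single-cell RNA-seq, with 1 library per stage (E12.0, E9.5) and no replicate. Embryos were labelled K14Cre;R26mT/mG at both stages, a genotype in which Cre under the keratin 14 promoter switches a membrane reporter from tomato to GFP. At E12.0, mandibles of 6 embryos were pooled, the epithelium was peeled off after 32 min in Dispase II, dissociated for 30 min in TrypLE and sorted for GFP, so only epithelium that had recombined the reporter was retained. At E9.5, arches of 8 embryos were pooled and dissociated whole for 19 min in TrypLE without a sort, so that mesenchyme, endoderm, mesoderm and endothelium were retained with the surface epithelium. Both enzyme steps were run at 37 °C, and neither stage received a treatment. Stage therefore cannot be told apart from dissociation, sorting, depth, library or counting version in any comparison between the libraries.

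Immediate-early genes are transcribed within minutes of a signal, from factors already present in the cell. Growth factor signalling through ERK acts on many of them through serum response factor and its ETS partners, cyclic AMP and calcium act through CREB, and their products include the AP-1 subunits (Fos and Jun families), zinc finger factors (Egr and Klf families) and inhibitors that end the response (Dusp1, Zfp36). Heat shock genes encode chaperones. Some, such as Hspa8 and Hsp90aa1, are made in most growing cells, and others, such as Hspa1a and Hspa1b, are held low until HSF1 is activated by misfolded protein. Both groups are also known to respond to warm enzymatic dissociation of tissue.

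After filtering to cells with 200 to 5500 detected genes and at most 10% mitochondrial UMIs, 11355 cells remained at E12.0 and 12744 at E9.5, with medians of 6349 and 13460.5 UMIs per cell and of 5.5% and 1.54% mitochondrial UMIs. The libraries shared 44 barcodes. Epcam, which encodes an epithelial adhesion protein, had at least 1 UMI in 84% of E12.0 cells (9536) and 37.8% of E9.5 cells (4816), and these cells were compared between stages. Of the E9.5 cells with Epcam, 1811 (37.6%) also had markers of another tissue or a single endoderm UMI. Mesenchyme markers summed to 309 CPM over all of them and to 25.9 CPM in the 2735 cells of the surface epithelium gate. The summed level of the epithelial markers Epcam and Cdh1 at E12.0 was 531 UMIs per 1000000 UMIs (CPM), against 0.77 for mesenchyme, 1.26 for endothelium, 0.924 for blood, 0.423 for immune cells and 0.0257 for mesoderm core markers. Levels were CPM of UMIs summed over cells, with 95% intervals that cover counting error only, since cells of 1 library are not replicates and UMIs were counted on 1 pool of embryos. A gene was called higher or lower when it differed by at least 1.5-fold and reached 10 CPM in 1 of the groups compared. No p-values were computed.

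RefSeq promoter sequence (GRCm38.p6, 250 bases before the start) was found for 26 of the 33 genes, 21 immediate-early and 5 heat shock. There was no entry for Egr1, Egr3, Ier2, Hspa8, Hsp90aa1, Ctgf and Myc. The core of the CREB element, TGACG on either strand, was present in 11 of 21 immediate-early promoters (Fos, Fosb, Junb, Egr2, Atf3, Nr4a1, Dusp1, Btg2, Klf2, Klf4 and Cyr61) and in 2 of 5 heat shock promoters, against 17.8% of 32851 promoters. The full element TGACGTCA, which contains this core, was found in Dusp1 and Btg2 and in 1.55% of all promoters. A heat shock element, GAANNTTC or TTCNNGAA, was found in 4 of 5 heat shock promoters (Hspa1a, Hspa1b, Hspb1 and Dnaja1) and in 3 of 21 immediate-early promoters, against 12.8% overall. TATAAA was present in Fos, Gadd45b, Gadd45g and Cyr61 (12.4% overall), the CArG box bound by serum response factor in Egr2 and Zfp36 (1.47%), and the AP-1 site TGANTCA in none of the 26 (6.75%). A gene with several starts (Egr2 with 5, Dnaja1 with 3 and Dnajb1 with 2) was counted when any of them matched. The shares over all promoters count each start singly, so these genes had more windows to match. A match of letters is a description of the window and not a bound site. The promoters of Fos and Dusp1, whose transcripts were found in the same cells, and of the paralogs Hspa1a and Hspa1b, which were concentrated in 1 cluster of cells, are shown 5′ to 3′ on the gene's strand. Capitals mark the CREB core in Fos (chr12:85473640-85473889, plus strand) and Dusp1 (chr17:26508473-26508722, minus strand), and the heat shock element in Hspa1a (chr17:34972157-34972406, minus strand) and Hspa1b (chr17:34959239-34959488, minus strand).
Fos: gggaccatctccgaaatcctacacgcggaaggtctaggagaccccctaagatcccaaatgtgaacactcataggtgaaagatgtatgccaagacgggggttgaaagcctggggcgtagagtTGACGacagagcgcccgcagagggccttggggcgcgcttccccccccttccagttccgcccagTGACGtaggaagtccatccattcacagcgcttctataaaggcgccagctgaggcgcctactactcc
Dusp1: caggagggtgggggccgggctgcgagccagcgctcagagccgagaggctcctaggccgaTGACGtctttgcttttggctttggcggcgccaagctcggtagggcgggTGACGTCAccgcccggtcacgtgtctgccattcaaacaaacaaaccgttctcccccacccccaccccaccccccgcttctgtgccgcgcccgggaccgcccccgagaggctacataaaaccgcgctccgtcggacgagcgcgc
Hspa1a: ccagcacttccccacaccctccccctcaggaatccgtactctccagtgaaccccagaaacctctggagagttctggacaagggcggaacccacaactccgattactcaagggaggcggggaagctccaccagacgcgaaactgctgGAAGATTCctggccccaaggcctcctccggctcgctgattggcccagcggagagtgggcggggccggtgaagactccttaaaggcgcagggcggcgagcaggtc
Hspa1b: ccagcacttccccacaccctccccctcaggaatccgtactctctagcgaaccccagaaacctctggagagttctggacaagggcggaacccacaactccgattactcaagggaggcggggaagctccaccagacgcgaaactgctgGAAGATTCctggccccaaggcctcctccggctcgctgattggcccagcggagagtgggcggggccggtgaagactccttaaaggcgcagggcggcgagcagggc

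The CREB cores of Fos began 129 and 66 bases before the start, and those of Dusp1 191, 143 and 140 bases before it, the last 2 forming 1 full element. In Hspa1a and Hspa1b the heat shock element lay 104 bases before the start. These 2 promoters were identical at 247 of 250 positions. The proteins are nearly the same as well, but the transcripts were not compared. How the counting assigned reads between the 2 genes cannot be seen from the matrices. Processed pseudogenes of Hspa8, Hsp90aa1 and Dnaja1 leave the same doubt about their levels.

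Between stages, immediate-early transcripts were more abundant in the Epcam-positive cells of E12.0 and the abundant chaperones in those of E9.5. The 26 immediate-early genes summed to 2168 CPM (2156.9 to 2179.1) at E12.0 and 562 CPM (557 to 568) at E9.5, whereas the 7 heat shock genes summed to 3322.5 CPM at E12.0 and 8844 CPM at E9.5. Of 25 members that reached 10 CPM, 19 were higher at E12.0, against 35.2% of the 9113 genes tested, and 3 were lower, against 16.3%. Some of the 19 were tested only through their E12.0 level: among the 18 members at 10 CPM or more at both stages, 12 were higher and 3 lower, against 28.9% and 14.6% of 7424 such genes. With the E9.5 side restricted to the surface epithelium gate, 20 members were higher and 3 lower, with Fos at a log2 difference of 3.97, Hspb1 at 4.94 and Hsp90aa1 at −1.77. The median log2 difference of tested members was 2.18 for the immediate-early and −1.05 for the heat shock genes, against 0.24 for all genes.

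Fos, a rapidly induced AP-1 subunit (chromosome 12, 85473890 to 85477273), had 294 CPM (290 to 298) at E12.0 and 15.4 CPM (14.5 to 16.4) at E9.5, a 19.1-fold difference (log2 4.25, 4.16 to 4.35). Its partners had smaller differences. Jun had 372 and 74.3 CPM (log2 2.33), Jund 332 and 70.1 CPM (2.24), Fosb 80.7 and 23.1 CPM (1.81) and Junb 53.6 and 12.3 CPM (2.12). Atf3, a stress-responsive repressor of the same protein family, had 47.6 and 4.8 CPM (3.31). All of these AP-1 family members were called higher at E12.0. Among zinc finger factors, Egr1 had 94.2 CPM at E12.0 and 19.3 CPM at E9.5 (log2 2.29), Klf4, a regulator of barrier differentiation, 63.6 and 11.8 CPM (2.43), and Klf6 71.1 and 26.9 CPM (1.40).

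Among inhibitors of the response, Dusp1, Zfp36 and Btg2 were called higher at E12.0, whereas Dusp2 and Socs3 were too low to be tested. Those called were below 10 CPM at E9.5 and were tested only through their E12.0 level. Dusp1, a phosphatase that inactivates MAP kinases, had 61.9 CPM at E12.0 and 8.43 CPM at E9.5 (log2 2.88). Zfp36, which destabilises AU-rich transcripts, had 19.5 and 4.56 CPM (2.09), and Btg2, an antiproliferative gene, 55.2 and 7.24 CPM (2.93). Ier5 had 175 and 24.6 CPM (2.83) and Ier3, a survival gene, 14.7 and 3.49 CPM (2.08). The growth arrest genes Gadd45g (89.7 and 12.4 CPM, log2 2.86) and Gadd45b (40.7 and 12 CPM, 1.76) and the matricellular YAP target Cyr61 (107 and 28.9 CPM, 1.89) were higher at E12.0 as well. The nuclear receptor Nr4a1 was at the floor of the test, with 10 CPM at E12.0 and 2.62 at E9.5, and was no longer tested when doublets were left out. Only 2 tested immediate-early genes were not called. Ier2 had 146 CPM at E12.0 and 160 at E9.5 (log2 −0.13), and Myc, the growth regulator, 17.6 and 16.8 CPM (0.07).

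Heat shock genes did not move as 1 group between stages. Hspb1, a small heat shock protein found in stratifying epithelium (chromosome 5, 135887919 to 135889563), had the largest stage difference of all tested members, with 89.5 CPM (87.3 to 91.8) at E12.0 and 2.95 CPM (2.55 to 3.39) at E9.5 (log2 4.92, 4.72 to 5.14). The constitutive chaperones were lower at E12.0. Hsp90aa1, a cytosolic HSP90, had 1435.3 CPM at E12.0 and 5042 at E9.5 (log2 −1.81), Hspa8, the constitutive HSP70, 1297.2 and 2689.8 CPM (−1.05), and their cochaperone Dnaja1 428 and 1050.9 CPM (−1.30). Dnajb1, the cochaperone most closely tied to HSF1, was not called, with 63.1 and 56 CPM (0.17). Hspa1a (5.43 and 1.29 CPM) and Hspa1b (4.18 and 1.13 CPM) were too low at both stages to be tested. The same held for Egr2 (3.97 and 3.72 CPM), Dusp2 (3.74 and 3.39 CPM), Klf2 (3.46 and 2.98 CPM), Socs3 (8.36 and 6.17 CPM) and Ctgf (1.97 and 6.65 CPM), and for Egr3, which had 4 UMIs at E12.0 (0.0589 CPM) and 0.813 CPM at E9.5.

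**Figure D1:**
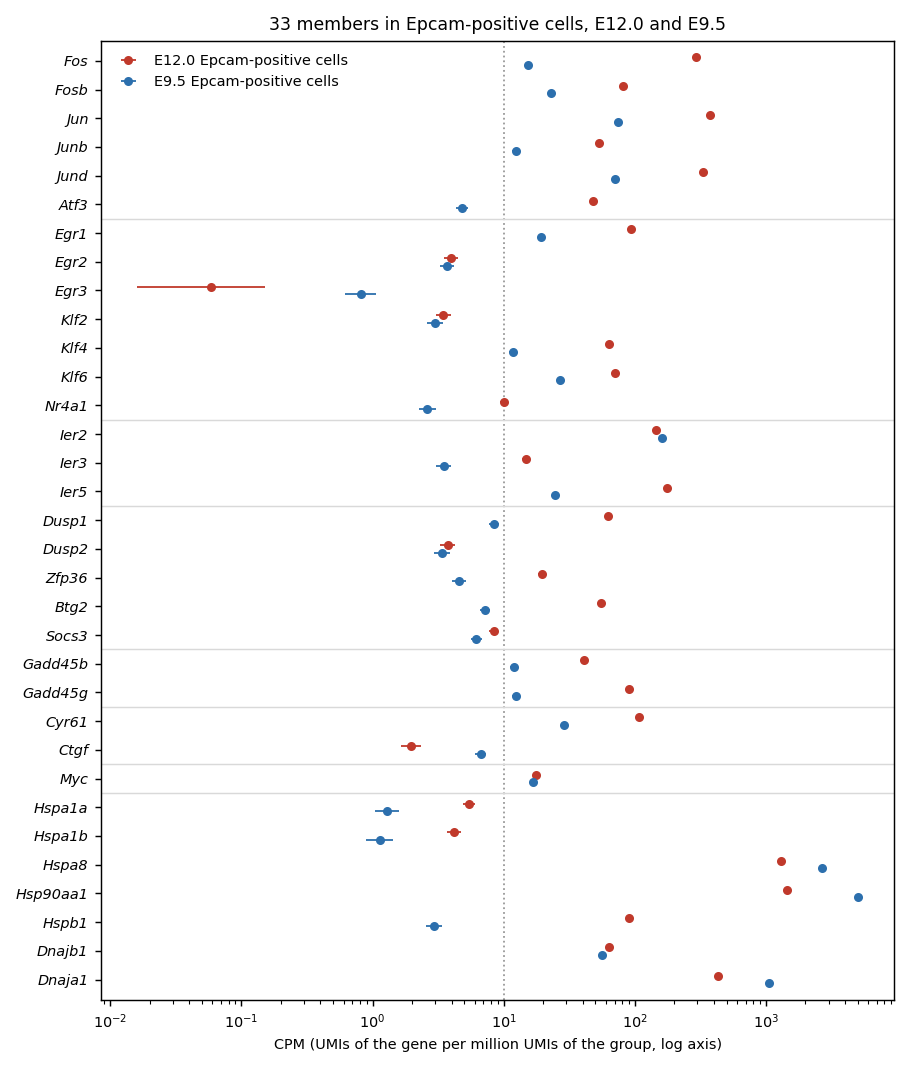
Levels of the 33 members in Epcam-positive cells of each library, in CPM on a log axis, with 1 point per library and gene bars for 95% counting intervals and a dotted line at the 10 CPM a tested gene had to reach. Fos and Hspb1 lie far to the E12.0 side, and Hspa8, Hsp90aa1 and Dnaja1 lie to the E9.5 side.

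Related genes outside the group were called in both directions, and their counts are read against the 35.2% of all genes higher and 16.3% lower in this comparison. Of 15 other immediate-early genes that could be tested, 8 were higher at E12.0, among them the AP-1 subunit Fosl2 (34.3 and 1.85 CPM, log2 4.21), and 3 were lower, among them Phlda1 (24.3 and 114 CPM). Fosl2 was tested only through its E12.0 level. Counts limited to genes at 10 CPM or more at both stages were not made for these lists. Of 18 other chaperone genes tested, 10 were lower at E12.0 and 3 were higher. Hsp90ab1 had 5343.8 and 9578.4 CPM and the mitochondrial chaperonin Hspd1 778 and 1941.4 CPM, whereas the small heat shock gene Hspb8 had 56.3 and 12.1 CPM. Of 12 factors that act upstream, 9 were higher and none was lower at E12.0. Srf, which encodes serum response factor, had 56.3 and 22.7 CPM, its partner Elk4 45.2 and 10.6 CPM, and Yap1 203 and 73 CPM.

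The mitochondrial share of UMIs, often used as a sign of cell damage, differed between the stages, and the stage difference was therefore repeated within bins of it. Among Epcam-positive cells of 0-5%, the immediate-early sum was 2087 CPM at E12.0 (2791 cells) and 562 at E9.5 (4750 cells), and the heat shock sum was 3496.3 and 8853.9 CPM. Among those of 5-10%, the immediate-early sum was 2204.1 CPM at E12.0 and 639 at E9.5, where only 66 cells fell in this bin. The heat shock sum in this bin was 3245 and 6991.9 CPM, so both stage differences kept their direction in both bins.

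Within the E12.0 library, with all its cells pooled, those of 5-10% mitochondrial UMIs (8101, or 71.3%) differed little from those of 0-5% (3254) in the members. None of 25 tested members was called in either direction, against 0.773% of 8800 genes higher and 1.18% lower, and 1 was past a fold of 1.3. The log2 differences ran from −0.23 for Cyr61 to 0.47 for Ier3, which had 16.3 CPM in the higher bin and 11.8 in the lower. Fos had 312 and 256 CPM (0.29), Hspb1 96.3 and 76 CPM (0.34) and the immediate-early sum 2218.7 and 2102.8 CPM. The heat shock sum was the smaller one in the higher bin, at 3220.3 and 3489.5 CPM. The bins mix the zones described below unevenly, with 3076 and 630 anterior cells but 1367 and 1159 posterior cells. Within zones some members differed more between the higher and the lower bin. Hspb1 had 102 and 63.7 CPM in posterior cells, and Egr1 409 and 258 CPM in periderm and suprabasal cells. Atf3 went the other way in posterior cells (35.6 and 43.9 CPM). Members were not called between bins within zones.

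In the E9.5 library only 146 cells (1.15%) lay in the 5-10% bin, with a median of 3140.5 UMIs, and 8 of 22 tested members were higher there and 1 was lower, against 27.4% and 9.71% of all genes. The 8 were Fos, Fosb, Ier5, Klf4, Klf6, Gadd45b, Ctgf and Hspb1, and Hspb1 had 37.1 CPM on 21 UMIs against 2.7 CPM in the other cells. Among the 15 members at 10 CPM or more in both bins, 4 were higher and 0 lower, against 20.3% and 8.94% of 7452 such genes. The higher count is thus near the share of all genes. With each cell weighted equally the log2 difference of Fos turned from higher to −0.30, so the bin is thin for this gene.

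At E12.0, epithelial cells were clustered without the members among the variable features, and clusters were joined to zones of the mandibular epithelium by markers. The anterior (aboral) zone held 3706 cells, the dental zone 2622, the posterior (non-dental oral) zone 2526 and the periderm and suprabasal zone 465, and 2036 cells were left without a zone. The dental zone was the least stable of these, with 1134 to 1607 cells under 4 other clusterings, in which the dental log2 differences kept their sign (Fos from −1.63 to −1.43, Myc from 1.04 to 1.15). The summed immediate-early level was 2219.3 CPM in anterior cells, 2066.8 in dental, 2027.1 in posterior and 2977.2 in periderm and suprabasal cells. The heat shock sums lay closer together, between 3202.9 CPM in anterior and 3573.6 CPM in posterior cells. Single genes differed more than these sums, and in different zones.

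Fos and Fosb were high in anterior and lowest in dental cells. Fos had 417 CPM in anterior cells against 236 in all other cells (log2 0.82) and 148 CPM in dental cells against 343 (−1.21). In periderm and suprabasal cells it had 408 CPM (386 to 431), an interval that overlapped that of the anterior level (409 to 425), and in posterior cells 251 CPM. The share of thinned cells with at least 3 Fos UMIs was 25.8% (24.3 to 27.2) in the anterior, 23.4% (19.4 to 27.7) in the periderm and suprabasal, 12.9% (11.6 to 14.3) in the posterior and 5.75% (4.87 to 6.74) in the dental zone. The anterior and the periderm and suprabasal intervals overlapped, and the others did not. Anterior cells were also higher in Fosb (114 and 66.2 CPM) and Ier3 (20.8 and 12.1 CPM) and lower in Klf6 (49.5 and 79.5 CPM), Cyr61 (56.9 and 136 CPM, −1.26) and Myc (7.56 and 21.9 CPM, −1.53). These calls compare with 3.35% of all genes higher and 5.05% lower. Myc was tested only through its level in the other cells. Among the 23 members at 10 CPM or more in both groups, 3 were higher and 2 lower, against 2.43% and 2.88% of such genes.

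Dental cells, by contrast, were high in Cyr61, Myc and Gadd45g. Cyr61 had 178 CPM there and 88.5 elsewhere (log2 1.01), Myc 29.2 and 13.3 CPM (1.14) and Gadd45g 132 and 77.8 CPM, against 2.63% of genes higher. Besides Fos, dental cells were low in Egr1 (37.7 and 115 CPM, −1.60), Fosb (42.4 and 94.6 CPM), Nr4a1 (5.62 and 11.4 CPM) and Hspb1 (53.9 and 102 CPM, −0.92), against 4.11% lower. Nr4a1 was tested only through its level in the other cells. Among the 24 members at 10 CPM or more in both groups, 3 were higher and 4 lower, against 1.66% and 2.59% of such genes. In posterior cells Ier3 (10.2 and 16.4 CPM), Ier5 (118 and 196 CPM) and Gadd45b (18.6 and 47.9 CPM, −1.36) were lower (background 4.46%). Hspa1a was the only member called higher there, with 13.9 CPM against 2.33 (background 4.74%), and was tested only through its posterior level. Among the 24 members at 10 CPM or more in both groups, 0 were higher and 3 lower, against 2.84% and 2.97% of such genes.

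Periderm and suprabasal cells had the most members called higher, 10 in all, against 9.4% of genes. Egr1 was 356 CPM in this zone and 84.8 elsewhere (log2 2.07, 1.98 to 2.16), and Hspb1 was 301 and 81.3 CPM (1.89). Klf4 (139 and 60.2 CPM), Klf6 (128 and 67.2), Atf3 (119 and 45.3), Junb (109 and 52), Gadd45b (94.1 and 38.8), Btg2 (86.5 and 53.8), Zfp36 (47.5 and 18.2) and Hspa1b (16.4 and 3.58) were the others. Cyr61 (40.9 and 113 CPM) and Ier3 (10.1 and 15.1 CPM) were lower (background 6.81%). Hspa1b was tested only through its level in this zone. Among the 24 members at 10 CPM or more in both groups, 9 were higher and 2 lower, against 6.4% and 4.8% of such genes. This zone was 1 cluster, of which 9.89% of cells were called doublets against 5.82% of the library. Without called doublets, 19 members were higher and 11 lower in at least 1 E12.0 zone, against 17 and 11 with them. Those counts pool the zones, so they do not show the part of doublets in the periderm and suprabasal values. The share of all genes called in at least 1 zone was not computed, so the pooled counts have no background. Egr1 was highest in the periderm and suprabasal zone among cells of 0-5% (258 CPM) and of 5-10% mitochondrial UMIs (409 CPM). Over the 33 members, 27 had the same highest zone in both bins. The share over all genes was not computed, so this count has no background. The 33 include members on very few UMIs, such as Egr3 with 1 UMI in the anterior cells of each bin.

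**Figure D2:**
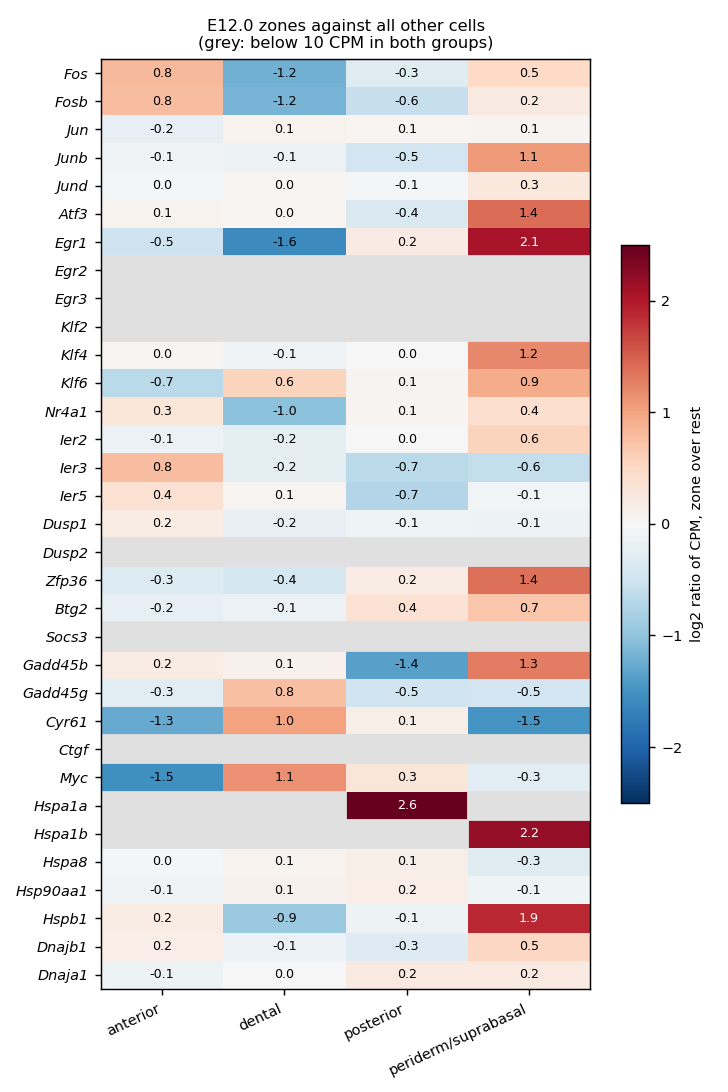
Log2 ratio of each member's CPM in an E12.0 zone to that in all other E12.0 cells, as a heat map with zones in columns, members in rows and grey for members below 10 CPM in both groups. The anterior and dental columns have opposite signs for Fos, Fosb, Cyr61 and Myc, and the periderm and suprabasal column is positive for Egr1, Hspb1 and Klf4.

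Several small clusters stood apart from their zones and were singled out after their values were seen, with names taken from leading genes. A cluster of 152 cells led by Gria2 and Pcdh9, without a zone, had the largest immediate-early sum, 4390.5 CPM (4245.6 to 4539.1) against 2161.6 in all other cells. In it 12 of 21 tested immediate-early genes were higher (background 12.3%) and 3 were lower (13.8%). Fos had 958 CPM against 289 (log2 1.73), Jun 1035.3 against 369 (1.49), Atf3 185 against 46.9 (1.98) and Btg2 166 against 54. Among the 18 at 10 CPM or more on both sides, 10 were higher and 2 lower, against 8.97% and 10.7% of such genes. Its heat shock sum was below that of the other cells, at 2757.8 CPM against 3306, and Hspa1b was called higher on 9 UMIs (11.4 and 4.03 CPM, 95% interval of the log2 difference 0.36 to 2.44). Cyr61 (41.8 and 111 CPM) and Myc (6.33 and 17.3 CPM) were lower there along with Gadd45g. Cells of this cluster had a median of 4319 UMIs and 6.55% mitochondrial UMIs, 146 of the 152 lay in the 5-10% bin, and 7.89% were called doublets. The immediate-early sum was 4468.5 CPM against 2187.6 within the 5-10% bin, 4639.3 against 2149.7 without doublets, and 4041.4 against 2149.6 among cells of at least 4000 UMIs.

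A cluster of 216 dental cells led by Shh and Bmp2, ligands of the dental epithelium, combined a high immediate-early sum with low Fos. The sum was 3150.8 CPM against 2162.9, with 10 of 21 tested immediate-early genes higher (background 9.29%) and 4 lower (10.2%). Junb had 183 CPM and 51.5 elsewhere (log2 1.83), Ier5 367 and 173, Atf3 163 and 45.8, Gadd45g 203 and 88.5, and Gadd45b 114 and 39.5. Fos had only 142 CPM against 299 (−1.07), Fosb 23.8 against 83.1 and Egr1 48.9 against 96.9. Low levels of these genes were not particular to this cluster. The dental zone as a whole had 148 CPM of Fos, 42.4 of Fosb and 37.7 of Egr1. Among the other dental clusters, Fos had 91.3 CPM in that led by Irx1 and 180 CPM in that led by Fgf8. Doublets made up 9.72% of the cluster, and without them the sum was 3137.7 CPM against 2153.3.

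Hspa1a and Hspa1b were concentrated in a posterior cluster of 387 cells led by Fam150b and Col9a1. Hspa1a (chromosome 17, 34969190 to 34972156) had 61.6 CPM there (53.5 to 70.6) and 2.49 CPM (2.15 to 2.88) in all other cells (log2 4.63, 4.33 to 4.92). Hspa1b (chromosome 17, 34956436 to 34959238) had 29 CPM (23.5 to 35.4) and 2.99 CPM (log2 3.28, 2.92 to 3.63). A UMI of Hspa1a was found in 27.1% of these cells and in 1.61% of the rest. At least 1 UMI of either gene was present in 124 cells of the cluster (32%) and at least 3 in 45, with a maximum of 13, whereas 3 of the 10968 other cells had 3 or more. The 10 highest cells held 21.5% of the 303 UMIs. Over all 10439 thinned cells, the 2 genes were detected together 7.86 times as often as their shares predict (4.87 to 12, on 21 cells). Since both were concentrated in this cluster, that ratio does not show whether they shared cells within it, which was not tested. Posterior cells outside this cluster had 3.17 CPM of Hspa1a (2.33 to 4.22), so the posterior call above rested on it. The level was 63.2 CPM in its cells of 0-5% and 60.4 CPM in those of 5-10% mitochondrial UMIs, and 65.9 CPM without doublets, which were 8.27% of the cluster.

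Other chaperones of this cluster moved less. Its heat shock sum was 4441.9 CPM against 3249.2, and Hspa8 (1829.8 CPM) and Hsp90aa1 (1930.7 CPM) were at their highest of the clusters, but below a 1.5-fold difference. Hspb1 was lower, at 41 CPM against 92.5. Myc (47.6 and 15.8 CPM), Nr4a1 and Zfp36 were higher, and Fosb, Junb, Atf3, Ier5, Dusp1, Klf4, Gadd45b and Gadd45g were lower (background 7.15% higher and 10.3% lower). In a cluster of 306 cells led by Zcchc5, Foxa2 and Foxa1, Hspb1 (278 CPM), Egr1 (221 CPM), Klf4 (185 CPM) and Egr2 (10.5 CPM) were higher (background 3.73%), while 8 members were lower (5.64%). Hspb1, Egr1 and Klf4 were thus called higher both in this cluster and in periderm and suprabasal cells. The latter were also next highest of the clusters for Hspa1a, at 8.5 CPM (5.6 to 12.4), below the 10 CPM minimum. A shallow cluster of 274 cells, led by Gm42418 with a median of 1093.5 UMIs, had no member higher (8.69%) and 2 lower (10.7%), with an immediate-early sum of 2097.2 CPM.

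**Figure D3:**
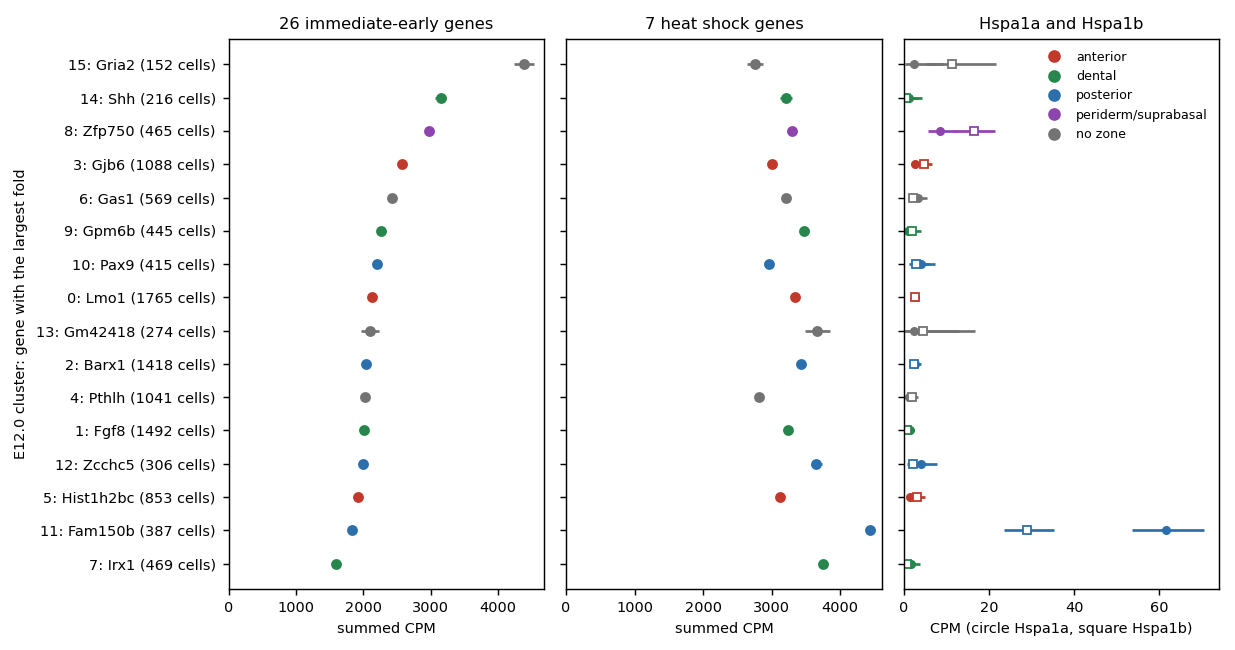
Summed CPM of the immediate-early and of the heat shock genes and the CPM of Hspa1a and Hspa1b in each E12.0 cluster, with 95% counting intervals, clusters named by the gene of largest fold and colours for zones. The cluster led by Gria2 and Pcdh9 lies highest for the immediate-early sum at 4390.5 CPM, and that led by Fam150b and Col9a1 at 4441.9 CPM for the heat shock sum and alone above 20 CPM of Hspa1a.

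Across the E12.0 clusters, other than the shallow one, members differed in how far their levels ranged. Egr1 ranged from 25.2 to 356 CPM (14.1-fold), Fos from 91.3 to 958 CPM and Hspb1 from 26.4 to 301 CPM. Ier2 varied 2.15-fold, Hsp90aa1 2-fold, Dnajb1 1.84-fold, Hspa8 1.73-fold (1059.1 to 1829.8 CPM) and Dnaja1 1.4-fold, so that Ier2 lay close to the abundant chaperones. Variation among single cells was measured with every cell thinned to 4000 UMIs. The ratio of variance to mean was 3.1 for Egr1, 2.54 for Fos, 2.49 for Jun and 2.31 for Atf3, against a median of 1.03 over 8659 genes. The ratios of Hspa8 (1.66), Hspb1 (1.64) and Hsp90aa1 (1.5) were above those of Dusp1 (1.3), Ier2 (1.25), Ier5 (1.19) and Zfp36 (1.03). This ratio tends to rise with the mean, and means were not matched. Hspa8 had a mean of 5 UMIs and Hsp90aa1 5.58, against 0.251 for Dusp1, 0.384 for Hspb1 and 0.585 for Ier2. The order therefore does not show whether these 2 abundant chaperones varied more than the immediate-early genes.

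At E9.5, marker gates separated surface epithelium (2735 cells), endoderm (270), mesenchyme (4236), mesoderm core (317) and endothelium (301), and cells with markers of several tissues were left out. Endothelial cells had by far the largest immediate-early sum, 1805 CPM (1762.3 to 1848.5), followed by mesoderm core with 922 CPM. Mesenchyme (546 CPM), surface epithelium (543 CPM) and endoderm (493 CPM) were lower. The order of the heat shock sums was different, from 10398.7 CPM in mesenchyme through 9053.1 in mesoderm core, 8432.2 in surface epithelium and 8160.7 in endoderm to 8000.9 CPM in endothelium.

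Relative to mesenchyme, 20 of 21 tested immediate-early genes were higher in endothelial cells, against 20.5% of all genes, and Hsp90aa1 was the member that was lower, at 3358.3 CPM against 5738.1 (background 13.1%). Of the 21, 12 were below 10 CPM in mesenchyme and were tested only through their endothelial level. Among the 9 at 10 CPM or more in both gates, 8 were higher, against 13.3% of 6811 such genes. Klf2, a flow-responsive factor of endothelium, had 111 CPM there and 2.17 in mesenchyme. Atf3 had 115 and 2.34 CPM, Gadd45g 136 and 4.75, Dusp2, a nuclear MAP kinase phosphatase, 95.3 and 3.84, Jun 347 and 100, Klf6 106 and 19.8 and Btg2 48.2 and 4.09 CPM. Klf2 and Dusp2, below 10 CPM in the Epcam-positive cells of both stages, thus passed it in endothelial cells. Myc was not called, at 27.2 and 25.4 CPM.

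Mesoderm core cells were the highest gate for Fos, at 59.2 CPM, and for Egr1 (54 CPM) and Egr2 (12.9 CPM), and 10 of 20 tested members were higher there than in mesenchyme (13.7%) and 1, Myc, was lower (5.43%). Among the 13 members at 10 CPM or more in both gates, 4 were higher and 1 lower, against 8.41% and 3.88% of such genes. In surface epithelium, 5 of 17 tested members were higher than in mesenchyme (18.8%): Fos (18.8 and 8.26 CPM), Fosb (30.5 and 9.5), Jund (77.3 and 32.8), Klf4 (15.9 and 2.73) and Gadd45b (14.4 and 2.64). Jun (59.7 and 100 CPM), Junb (9.4 and 18.4) and Myc (11.7 and 25.4) were lower (6.69%). Of the higher members, Fos, Fosb, Klf4 and Gadd45b were below 10 CPM in mesenchyme and were tested only through their epithelial level. Among the 12 members at 10 CPM or more in both gates, 1 was higher and 2 lower, against 11.9% and 4.7% of such genes. Endoderm had 5 of 17 tested members higher (21.4%) and 5 lower (7.86%), and its Gadd45b reached 25.5 CPM. Among the 11 members at 10 CPM or more in both gates, 1 was higher and 3 lower, against 13.3% and 5.84% of such genes. The Fos level of the E9.5 surface epithelium, 18.8 CPM, was below that of every E12.0 cluster of the range given above.

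**Figure D4:**
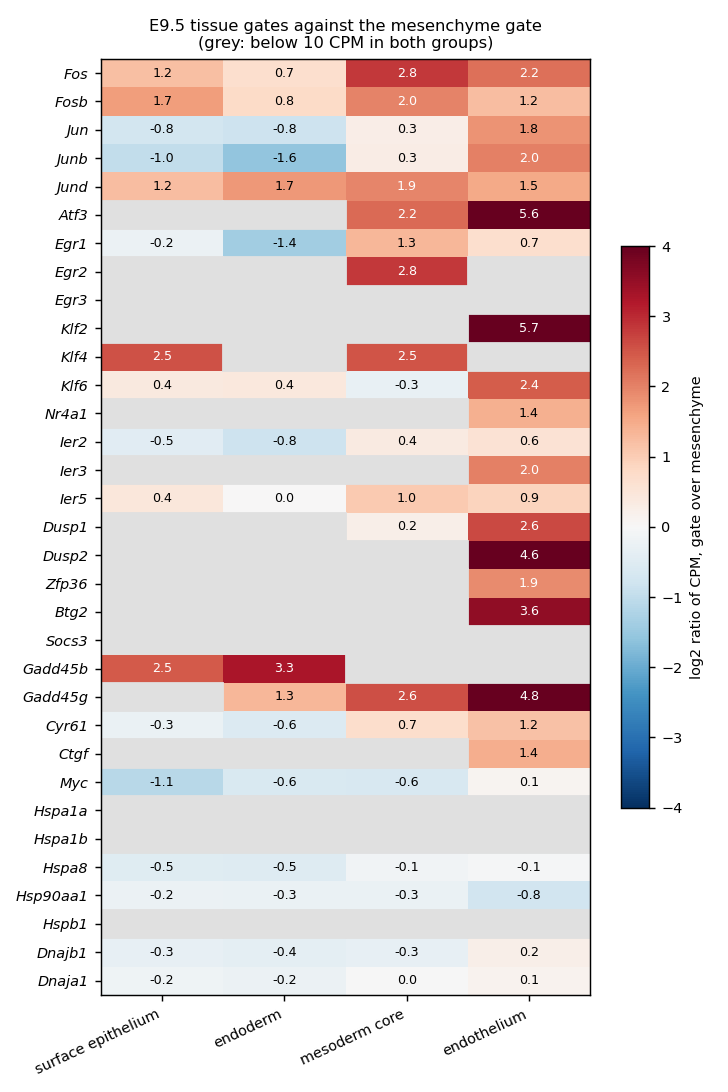
Heat map of the log2 ratio of each member's CPM in 4 tissue gates of the E9.5 library (columns) to that in the mesenchyme gate, with grey for members below 10 CPM in both. The endothelial column is strongest for Klf2, Atf3, Gadd45g and Dusp2, the mesoderm core column for Fos and Egr2, and of the heat shock rows only Hsp90aa1 in endothelium is past 1.5-fold.

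To ask which members were found in the same cells, E12.0 cells were thinned to 4000 UMIs each and divided by their Fos UMIs, which left 916 shallower cells out. Of 10439 cells, 5016 had no Fos UMI, 3708 had 1 or 2 and 1715 (16.4%) had at least 3. Cells with at least 3 Fos UMIs had higher levels of 12 other immediate-early genes than cells without Fos, against 2.1% of all genes, and none of the 5 tested heat shock genes was called. Among the 18 immediate-early genes at 10 CPM or more in both classes, 10 were higher and 1 lower, against 1.36% and 1.7% of such genes. Egr1 had 222 and 59.5 CPM (log2 1.90), Fosb 193 and 40.5 (2.25), Nr4a1 26.1 and 6.13 (2.09), Atf3 98.3 and 29.7 (1.73), Dusp1 112 and 43 (1.38), Btg2 97.4 and 43.8 and Jun 583 and 290 (1.01). The remaining members called were Junb, Ier3, Zfp36, Klf4 and Socs3. Hspa8 (1214 and 1283.8 CPM), Hsp90aa1 (1283.7 and 1430.1 CPM) and Dnaja1 (412 and 424 CPM) had nearly the same level in both classes, and Hspb1 had 126 and 86.6 CPM (0.54). Median mitochondrial shares were 5.68% in the cells with at least 3 Fos UMIs and 5.41% in those without, and doublet calls were 6.59% and 4.78%.

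Since Fos differed between zones, the classes were also compared within them, a comparison added after the data were seen. Among anterior cells 16 members were higher with at least 3 Fos UMIs (background 1.15%), among dental cells 11 (7.77%), among posterior cells 17 (3.35%) and among periderm and suprabasal cells 13 (17.3%). No member was lower in the first 3 of these zones (background 2.32%, 8.15% and 3.27%) and 5 were lower in the last (16.5%). Counts limited to members at 10 CPM or more in both classes were smaller. In anterior cells 13 of 21 such members were higher, against 0.462% of such genes, and in dental cells 10 of 23 (4.81%). In posterior cells 13 of 23 were higher (1.97%). In periderm and suprabasal cells 10 of 22 were higher (12%) and 4 lower (13%). These counts include heat shock genes, unlike that over all cells. Hspb1 was higher in dental (83.3 and 49.8 CPM) and in periderm and suprabasal cells (455 and 283 CPM). In posterior cells Hspa1a (20.4 and 12.8 CPM) and Hspa1b (12.3 and 5.35 CPM) were called higher on few UMIs. Hspa1a had 25 and 62 UMIs, with a log2 interval of −0.05 to 1.37 that includes 0. Hspa1b had 15 and 26 UMIs (0.17 to 2.17). In periderm and suprabasal cells Hspa1a was also higher (6 and 7 UMIs), and Hspa1b (4 and 16 UMIs) and Hsp90aa1 (934 and 1481.6 CPM) were lower. Egr1 reached 1136.4 CPM in periderm and suprabasal cells with at least 3 Fos UMIs and 133 CPM in those without. Atf3 did not follow Fos in that zone, with 96 and 108 CPM (−0.17). Myc was the member called lower over all E12.0 cells, with 10.2 and 19.6 CPM (−0.94; background 2.46%). It was not called within anterior (7.98 and 6.43 CPM), dental (31.2 and 31.4 CPM) or posterior cells (12.3 and 17.1 CPM), and was lower within periderm and suprabasal cells (5.05 and 26.3 CPM, in 99 and 190 cells).

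**Figure D5:**
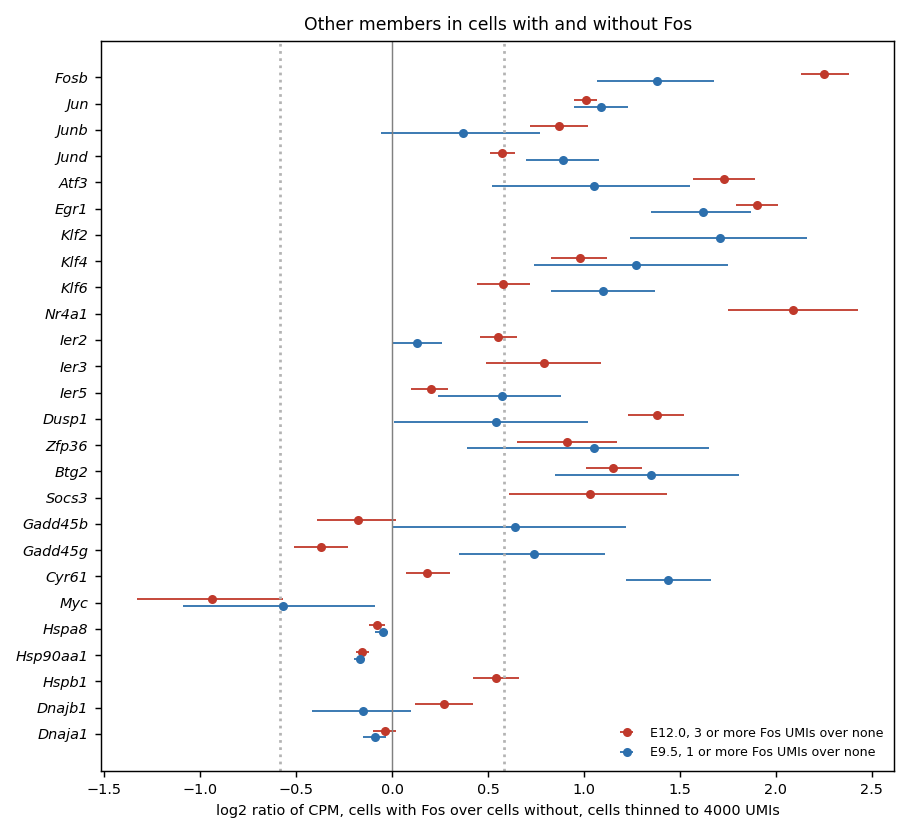
Log2 ratio of CPM in thinned cells with Fos UMIs to that in thinned cells without, for other members at 10 CPM or more, with 95% counting intervals and dotted lines at a fold of 1.5; E12.0 points compare at least 3 Fos UMIs and E9.5 points at least 1 with none. Egr1, Fosb, Nr4a1 and Atf3 lie above 1.5 at E12.0, and Hspa8, Hsp90aa1 and Dnaja1 lie near 0.

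At E9.5 only 22 thinned cells (0.199%) had at least 3 Fos UMIs, and 39.9% of all genes were called higher in them, so these cells were not read further. With at least 1 Fos UMI (610 cells against 10419 without, a class added after the data were seen), 13 of 18 tested immediate-early genes were higher (6.88%). Some of the 13 were tested only through the cells with Fos. Among the 12 at 10 CPM or more in both classes, 7 were higher and 0 lower, against 3.92% and 0.74% of such genes. Egr1 had 59.8 and 19.5 CPM (log2 1.62), Klf2 19.7 and 6 (1.71), Cyr61 80.7 and 29.7 (1.44), Fosb 42.6 and 16.4 and Jun 195 and 91.6. These classes pool cells of all tissues. Restricted to Epcam-positive cells, 10 of 15 were higher (5.88%), with Egr1 at 61.3 and 17.6 CPM and Cyr61 at 68.1 and 26.9 CPM, and Myc was lower (3.15%). Among the 12 at 10 CPM or more in both of these classes, 8 were higher and 0 lower, against 3.37% and 1.42% of such genes. The Myc call rested on 10 UMIs in cells with Fos, and its log2 interval (−1.81 to 0.17) included 0. So did those of Gadd45b (−0.13 to 1.31) and Gadd45g (−0.13 to 1.27), both called higher. Before thinning, 37.6% of Epcam-positive cells also had markers of another tissue or a single endoderm UMI, so these classes still mix tissues. Klf2 (3.89 and 3.16 CPM) and Atf3 (1.95 and 4.66 CPM), both called higher over all tissues, were below 10 CPM in Epcam-positive cells and not tested. Egr1, Fosb, Jun, Klf4, Btg2 and Zfp36 were therefore called higher in cells with Fos both at E12.0 and in Epcam-positive cells of E9.5. Btg2 (7.42 CPM without Fos) and Zfp36 (4.31 CPM) were tested there at E9.5 only through the cells with Fos.

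Detection of 2 genes in the same cell was compared with the product of their shares. At E12.0, Fos and Atf3 were found together 1.3 times as often as that product (1.22 to 1.38), Fos and Egr1 1.26 times (1.2 to 1.32), Fos and Dusp1 1.24 times (1.17 to 1.3) and Fos and Jun 1.09 times (1.06 to 1.12). The first 3 intervals overlap. Heat shock genes also exceeded 1, with 1.25 for Fos and Hspa1b (1.03 to 1.51) and 1.1 for Fos and Hspb1 (1.05 to 1.15), while Hspa8, detected in 98% of cells, could not depart from 1. Within anterior cells alone the ratio was 1.25 for Atf3, 1.19 for Egr1, 1.21 for Dusp1, 1.1 for Jun, 1.27 for Hspa1b and 1.02 for Hspb1. No intervals were computed for these anterior ratios, and that of Hspa1b rests on few cells, since the gene had 84 anterior UMIs before thinning. Fos and Myc had a ratio of 0.797 (0.703 to 0.899) over all E12.0 cells and 1.06 within anterior cells. The YAP targets Cyr61 and Ctgf were found together 1.77 times as often (1.25 to 2.44). At E9.5, over cells of all tissues, the ratio was 2.26 for Fos and Egr1 (1.85 to 2.74), 2.12 for Fos and Klf4, 1.52 for Fos and Jun and 0.67 for Fos and Myc (0.461 to 0.94). Fos and Klf4 were both higher, and Myc lower, in surface epithelium and mesoderm core than in mesenchyme. The E9.5 ratios therefore mix differences between tissues with those between cells, and the ratio within 1 tissue was not tested.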

How the data were processed

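The authors deposited raw UMI counts of each library, as a matrix of genes by cell barcodes, made with Cell Ranger on GRCm38 and without normalization, with barcodes already selected as cells. The methods and processing notes name version 2.0.0, whereas the file headers name 3.1.0 for E12.0 and 6.1.2 for E9.5, and 27514 genes are common to the lists of 27998 and 31053 genes. Members were matched by symbol. The members and the gene lists were chosen with earlier results of these data known, and all 33 members were named; genes that lead clusters were named after their values were seen. The E12.0 library held 77936364 UMIs and the E9.5 library 166191431. Levels of a few CPM rest on few UMIs.

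Doublets were called with Scrublet through scanpy 1.11.5 and retained. E12.0 cells were clustered with Seurat 5.3.0 and sctransform 0.4.2 under R 4.3.3 (30 principal components, resolution 0.9), after 57 members and listed genes were removed from 3000 variable features. A cluster joined the zone with the largest share of markers raised, at least 3. A cluster with more leading markers of another zone, or a tie, was left without one. Tissue gates required 2 marker UMIs, or 1 of Epcam. Intervals were exact Poisson or binomial at 95%, in scipy 1.17.1, and counts of 0 were set to a floor of 3 for folds. On simulated counts the rule recovered 200 of 200 genes changed 2-fold in a comparison of the stage groups' size and 198 of 200 for the periderm and suprabasal zone, with 0 and 39 false calls. These values concern counting error at that depth. How the rule performs with variation between libraries, embryos, dissociations or cell mixes was not tested. Counts over genes at 10 CPM or more in both groups, the within-zone Fos classes and the checks within single clusters were added after the data were seen. Alternatives covered gates, clustering, thinning, weighting, doublets, scaling and folds.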

Additional observations from a re-analysis of the deposited data

Results flagged for a closer look

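Barcodes with over 10% mitochondrial UMIs, which no comparison used, also carried both groups of members. They are listed because they lie outside the comparisons, since genes this abundant pass the limit that a count of 0 allows in any library. At E12.0, 294 such barcodes with a median of 1134 UMIs had an immediate-early sum of 2116.9 CPM (2006.7 to 2231.6), against 2184.2 CPM in the retained cells, and a heat shock sum of 2359.1 CPM, against 3300.4. At E9.5, 418 such barcodes with a median of 785 UMIs had sums of 700 CPM (621 to 786) and 5711.6 CPM, against 609 and 9500.7 CPM in the retained cells.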

How the results depend on the processing

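The stage calls, 19 higher and 3 lower, stayed between 18 and 20 and at 3, apart from 14 and 3 at a minimum of 50 CPM, which tests fewer genes. Over the zones, 17 members higher and 11 lower fell to 11 and 7 at a fold of 2. These counts pool the zone comparisons, and the share of all genes called in at least 1 zone was not computed. For the mitochondrial bins at E12.0, 1 member was higher at a fold of 1.3. At E9.5 the counts, 8 higher and 1 lower, were 4 and 0 at a fold of 2 and 13 and 4 at 1.3, with 4 lower under equal weights and 2 when thinned, and Fos was at −0.30 under equal weights. In surface epithelium against mesenchyme, 3 lower became 1 at a fold of 2 and 5 at 1.3. For the E12.0 Fos classes, 1 lower became 0 at a fold of 2 and within anterior, dental and posterior cells, and 5 within periderm and suprabasal cells, where Atf3 was at −0.17. For E9.5, 23 higher and 0 lower became 13 and 0 with 1 or more Fos UMIs, and 10 and 1 in Epcam-positive cells. Lower calls were 1 with all UMIs and with 2 or more Fos UMIs, and 2 at a fold of 1.3. Dnajb1 there was at −0.28 with all UMIs, −0.15 with 1 or more Fos UMIs and −0.07 in Epcam-positive cells. Other causes were not tested. No paired analysis was possible because each stage is 1 library, and no replicate could be left out.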

Other observations

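Lists of other stress responses differed between the stages in mixed directions, in a comparison where 35.2% of all genes were higher at E12.0 and 16.3% lower. Of 10 unfolded protein response genes tested, 6 were lower at E12.0, among them the endoplasmic reticulum chaperones Hspa5 (546 and 1089.6 CPM) and Hsp90b1 (879 and 1615.5 CPM), and 3 were higher, among them Ddit3 (24.9 and 6.5 CPM) and Ddit4 (44.8 and 15.6 CPM). Ddit3 was tested only through its E12.0 level, and counts limited to genes at 10 CPM or more at both stages were not made here. None of 4 oxidative stress genes tested was called at 1.5-fold. Of 7 p53 targets tested, 5 were higher, among them Phlda3 (55.7 and 10.9 CPM) and the cell cycle inhibitor Cdkn1a (44.9 and 27.6 CPM), and 1, Bax, was lower.

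In the E12.0 cluster led by Fam150b and Col9a1, where Hspa1a was high, 4 of 10 unfolded protein response genes were higher than in all other cells, against 7.15% of all genes higher and 10.3% lower: Hsp90b1 (1365.6 and 836 CPM), Hspa5 (894 and 527 CPM), Pdia4 (152 and 97.7 CPM) and Ddit4 (103 and 40.9 CPM). Ddit3 was lower there (13.5 and 25.5 CPM), as were the p53 targets Cdkn1a (22.7 and 47.3 CPM) and Phlda3 (25.7 and 58.4 CPM).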
